A study of Mus musculus with 2 samples.

Results

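Interferon-responsive microglia were taken as the barcodes that carried at least 5 unique molecular identifiers (UMIs, each standing for 1 captured transcript) summed over 8 interferon-induced genes: Ifit2, Ifit3, Isg15, Usp18, Rsad2, Oasl2, Rtp4 and Ifi204. A barcode entered only with at least 1500 UMIs, at least 200 detected genes and at most 10% mitochondrially coded UMIs. The rule found 131 of 19305 such barcodes, 60 of 10687 from Control and 71 of 8618 from FGR. They are called the interferon-responsive barcodes below, and the remaining 10627 and 8547 are called the other barcodes. Cells came from the hippocampus of mice aged 3 weeks after birth that were Tmem119-tdTomato+/- in both groups, which puts a red fluorescent reporter at Tmem119, a gene of resident microglia. The groups were Control and FGR (fetal growth restriction, impaired growth before birth), with 1 library each. Cells positive for Tmem119 were sorted by flow cytometry, so both groups hold only cells that passed this gate, and how many animals gave each library is not stated in the sources used here. With 1 library per group no test between groups is possible: the 95% intervals below cover counting error only, not differences between animals, and no p-value is given.

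Microglia are the resident macrophages of the brain. Type I interferons, such as interferon beta, bind a receptor made of Ifnar1 and Ifnar2, which activates transcription factors of the STAT family. Together with Irf9 these enter the nucleus and bind the interferon-stimulated response element, a short motif in the promoters of many antiviral genes. A small class of microglia that expresses these genes without infection is widely described in developing, ageing and diseased brain.

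Levels are given as CPM, the UMIs of a gene in every 1000000 UMIs summed over a group of barcodes. The 8 genes were chosen for their values here, so their level in the barcodes they picked is a description. The sum over the 8 genes was 10 UMIs in the median interferon-responsive Control barcode and 11 in the median FGR barcode, with highest values of 58 and 114. The sum had no gap at the limit. In the Control library 83 barcodes held 3 or 4 of these UMIs and 16 held 5 or 6, and in the FGR library 84 and 18 did. The 86 other interferon-induced genes described below summed to 6021 CPM (5808 to 6239) at 3 or 4 UMIs and 7494 CPM (6950 to 8068) at 5 or 6 for Control, and to 5929 CPM (5732 to 6130) and 4367 CPM (4061 to 4690) for FGR. The step across the limit was thus upward in the Control and downward in the FGR library, where the group at 5 or 6 includes the deepest barcode of the class, of 46239 UMIs. The class is a range cut from a score, not a type, and 90.4% (Control) and 89.8% (FGR) of the other barcodes held none of these UMIs.

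**Figure D1:**
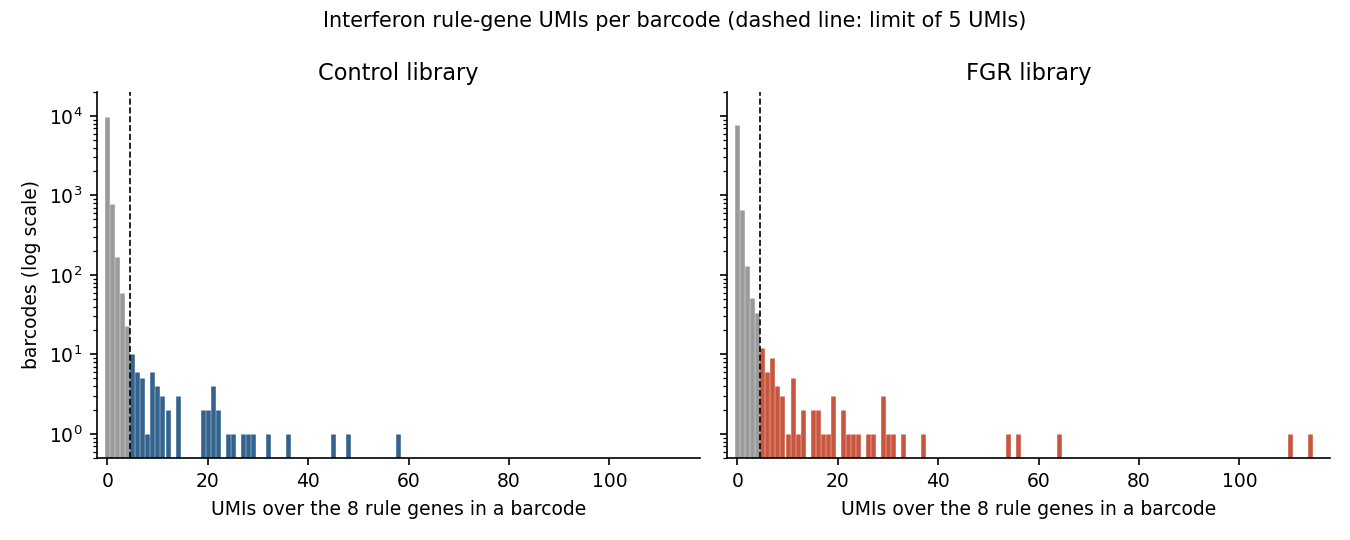
Number of barcodes (log scale) by UMIs summed over the 8 rule genes, in the Control library (left) and the FGR library (right), with the limit of 5 UMIs as a dashed line and the interferon-responsive barcodes in colour. The counts fall without a gap across the limit, and the tail reaches 58 UMIs on the left and 114 on the right.

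The share of interferon-responsive barcodes was 0.561% in the Control library (exact Clopper-Pearson interval 0.429 to 0.722) and 0.824% in the FGR library (0.644 to 1.04). The FGR share was 1.47 times the Control share, with a counting interval of 1.03 to 2.11. Depth differed as well: the interferon-responsive barcodes had a median of 5180.5 (Control) and 6161 (FGR) UMIs, against 4653 and 4912 in the other barcodes. When every barcode was thinned to 1500 UMIs, 0.842% of Control and 0.859% of FGR barcodes kept 2 or more rule-gene UMIs, a ratio of 1.02 (0.739 to 1.40). With 3 or more kept, the shares were 0.393% and 0.487%, a ratio of 1.24 (0.789 to 1.95). With 5 or more kept, they were 0.187% (0.114 to 0.289) and 0.267% (0.169 to 0.400). Among the strongest barcodes, those with 20 or more rule-gene UMIs, there were 18 in the Control and 19 in the FGR library, a ratio of shares of 1.31 (0.650 to 2.64). A higher share in the FGR library was thus not detectable after thinning at 2 or 3 UMIs, or at the limit of 20. The ratio after thinning depended on the cut, and few barcodes remained at the higher ones. With 1 library per group a difference between conditions cannot be told apart from one between libraries.

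The label was checked against cell type markers. All 12 microglial markers were detected in the interferon-responsive barcodes, and at least 4 of the 12 were present in 60 of 60 Control and 69 of 71 FGR barcodes. Markers of other cells were present too. Counting the defining markers of 11 other cell types, 5 of 60 and 12 of 71 interferon-responsive barcodes held 5 or more UMIs of 1 such type, against 0.979% and 0.878% of the other barcodes. Border macrophage markers accounted for 1 Control and 7 FGR barcodes, and vascular markers for 2 and 3. A single FGR barcode with 46239 UMIs, the deepest of the class, held 4578 UMIs of oligodendrocyte markers. Lymphocyte, neutrophil and ependymal markers passed the cut in 0 interferon-responsive barcodes of either library. Because a few deep barcodes can lead a sum, values are also given for the microglia-only set, an alternative chosen after seeing the data: the 55 Control and 59 FGR interferon-responsive barcodes left when all barcodes at or over this cut were set aside from both sides of the comparison. The name marks this filter only: no microglial marker was required, and barcodes with such UMIs under the cut stayed in. P2ry12, for example, was detected in 56 of the 59 FGR barcodes. In that set the shares were 0.520% and 0.692%, a ratio of 1.33 (0.905 to 1.957). Both libraries shared 31 barcode sequences among those that passed, none of them interferon-responsive. Free RNA, read in barcodes of 10 to 100 UMIs, held the rule genes at 38.8 CPM in the Control and 55.4 CPM in the FGR library, above the other barcodes (25.9 and 26.7 CPM) and far below the interferon-responsive ones (2507 and 2372 CPM).

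Among the rule genes, the Ifit family and Isg15 were the most abundant. Ifit3, which belongs to a family of proteins that bind viral RNA and block its translation, stood at 518 CPM in the interferon-responsive and 1.37 CPM in the other barcodes of the Control library, and at 431 and 1.67 CPM in the FGR library. Its neighbour Ifit2 stood at 359 against 1.41 CPM in the Control library and 342 against 1.25 CPM in the FGR library. Isg15, a ubiquitin-like protein that is attached to other proteins during an interferon response, was detected in 46 of 60 Control and 63 of 71 FGR barcodes, with 518 against 8.68 CPM and 571 against 11.4 CPM. These 3 genes supplied most of the rule-gene UMIs of the class. Entry at the limit was another matter. With 1 gene left out of the rule, the share was lowest without Rtp4 in the Control library (0.440%) and without Isg15 in the FGR library (0.603%).

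The remaining rule genes had lower levels than Isg15 in both libraries. Usp18, the protease that removes Isg15 and dampens receptor signalling, was present in 31 interferon-responsive barcodes of each library, at 157 CPM (Control) and 96.4 CPM (FGR). Rsad2 encodes viperin, an antiviral enzyme, and was the least often detected, in 12 of 60 and 21 of 71 barcodes. Its level was 71.2 CPM in the Control and 210 CPM (172.6 to 252.6) in the FGR library. Of its 111 FGR UMIs, 38 lay in 1 barcode and 24 in another. Oasl2, a relative of the oligoadenylate synthetases that sense double-stranded RNA, stood at 185 CPM in both libraries. Rtp4, an interferon-induced receptor transporter protein, stood at 356 CPM in the Control and 208 CPM in the FGR library, and was detected in 49 and 47 barcodes. Ifi204, a member of the DNA-binding PYHIN family, stood at 342 and 329 CPM.

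Barcodes seldom entered through a single gene. At least 3 of the 8 genes were detected in 55 of 60 Control and 59 of 71 FGR barcodes, and all 8 in 2 and 4. In 1 Control and 5 FGR barcodes a single gene carried the whole sum. To read a gene apart from its own UMIs, barcodes were picked by 5 or more UMIs of the other 7 genes. All 8 genes were chosen for their values here, so this reading is a description and no test of the class. The gene left out was then far higher in the picked barcodes than in the rest for each of the 8 genes in both libraries, with ratios from 32.6 for Rtp4 in the FGR library to 362 for Rsad2 in the FGR library. Isg15 gave 55.0 (45.6 to 66.1) in the Control and 39.3 (33.4 to 46.2) in the FGR library, and Ifit3 gave 360.0 and 248.

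**Figure D2:**
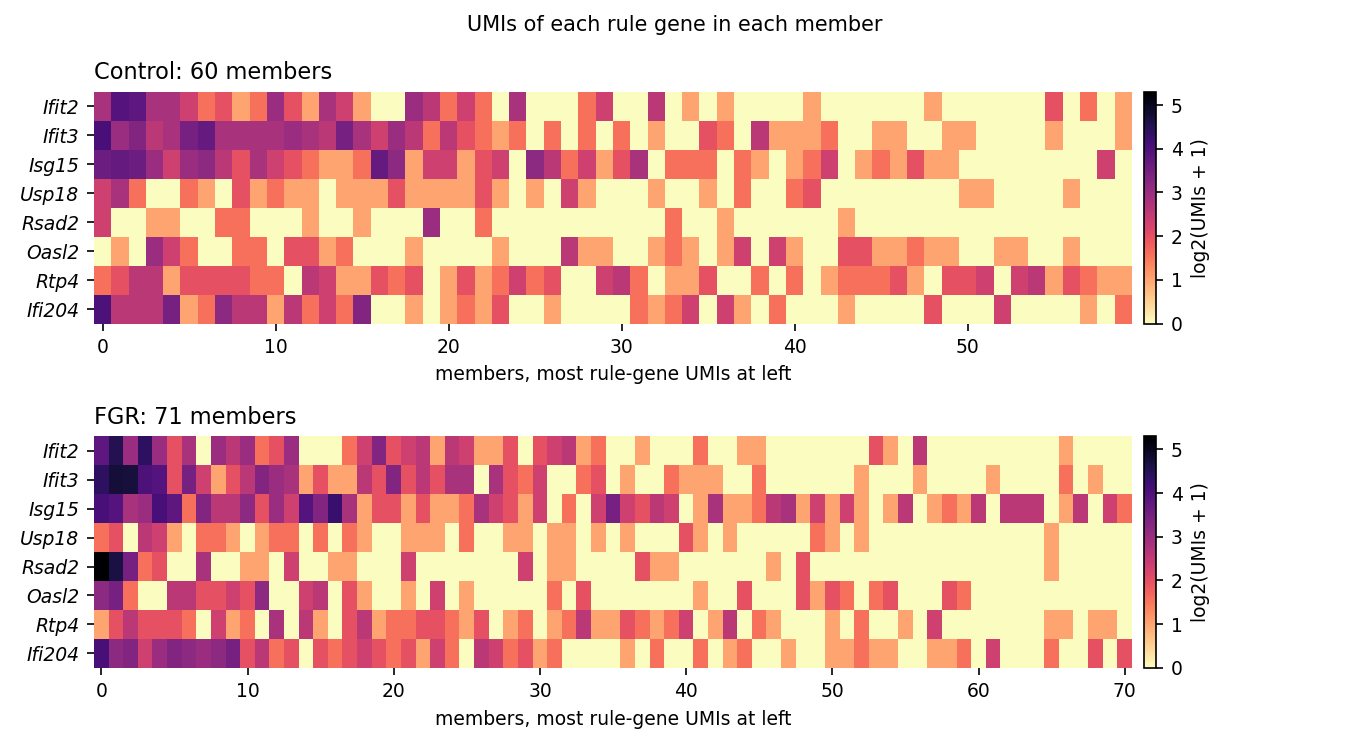
UMIs of each rule gene, as log2(UMIs + 1), in each of the 60 Control (top) and 71 FGR (bottom) interferon-responsive barcodes (named members in the plots), 1 column each, ordered by their sum. Ifit3, Isg15 and Ifi204 are filled across the barcodes with the highest sums, while Rsad2 is empty in most columns and darkest in 1 FGR barcode.

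Several of these genes lie side by side in the genome. By GENCODE M21 gene models on build mm10 (GRCm38), Ifit2, Ifit3, Ifit3b and Ifit1 lie in this order, with Ifit1bl1 and Ifit1bl2 between them, in a cluster on chromosome 19, from the start of Ifit2 at 34550694 to the end of Ifit1 at 34650009, and Ifi204 (173747293 to 173766943) lies beside Ifi207 (173723427 to 173741747) on chromosome 1. Isg15 lies on chromosome 4 (156199424 to 156200818), Oasl2 on chromosome 5 (114896936 to 114912234), Usp18 on chromosome 6 (121245906 to 121270917), Rsad2 on chromosome 12 (26442746 to 26456452) and Rtp4 on chromosome 16 (23520291 to 23614222). Promoter stretches that hold the core of the interferon-stimulated response element (GAAA, any 2 bases, then GAAA, on either strand) are shown because they are a feature the rule did not use. They come from RefSeq promoter windows of GRCm38.p6, 250 bases before to 50 after a gene's start, and only bases before the start are printed. Letters run along the gene's strand and capitals mark each match, which reads TTTC, 2 bases, TTTC where it lies on the opposite strand. For Ifit3 the stretch is chr19:34583348-34583441 (plus strand), for Isg15 chr4:156200850-156200921 (minus), for Rsad2 chr12:26456538-26456597 (minus), for Ifit1 chr19:34640760-34640838 (plus), for Bst2 chr8:71537562-71537627 (minus), for Stat2 chr10:128270251-128270310 (plus) and for Cxcl10 chr5:92349068-92349127 (minus).
Ifit3: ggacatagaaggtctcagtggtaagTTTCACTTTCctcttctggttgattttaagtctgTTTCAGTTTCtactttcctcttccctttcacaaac
Isg15: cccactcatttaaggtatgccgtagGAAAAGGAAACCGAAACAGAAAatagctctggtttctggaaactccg
Rsad2: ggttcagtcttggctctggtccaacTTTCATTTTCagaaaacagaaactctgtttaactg
Ifit1: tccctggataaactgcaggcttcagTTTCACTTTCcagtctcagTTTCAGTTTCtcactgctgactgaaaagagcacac
Bst2: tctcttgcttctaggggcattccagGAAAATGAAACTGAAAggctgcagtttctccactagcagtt
Stat2: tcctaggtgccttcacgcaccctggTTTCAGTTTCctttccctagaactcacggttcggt
Cxcl10: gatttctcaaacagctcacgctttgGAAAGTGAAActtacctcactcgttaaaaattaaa

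The runs differ in how many matches they hold and where. Isg15 has 3 overlapping matches, the last ending 56 bases before the start. Ifit3 has 2, and the promoter stretch of Ifit3b is identical to it. How well reads of Ifit3 and Ifit3b can be told apart was not examined. Of the 5 rule genes with a promoter entry, 3 (Ifit3, Isg15 and Rsad2) held the motif. It was found for 35 of 75 other interferon-induced genes with an entry, 5 of 19 genes of major histocompatibility complex (MHC) class I presentation, 2 of 9 STAT and IRF genes, 1 of 9 chemokines and 0 of 13 homeostatic microglial genes, against 1079 of 27025 genes with an entry (3.99%), or 3.44% of all 32851 promoter windows. The separate motif TTCNNNGAA, the gamma-activated site, was found for Ifit2, for 10 of the 75 other interferon-induced genes, and for 9.55% of all genes with an entry. A match is a string of letters in a window, not a measured binding site, and a missing match says nothing of the factor.

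The comparison with the other barcodes of the same library asked what else the interferon-responsive barcodes expressed. UMIs were summed over each side, a gene was measured at 50 CPM or more on either side, and it was called when the interval of the ratio lay wholly beyond 1.5-fold. Apart from the rule genes, 206 of 3870 measured genes were called higher in the Control library (5.32%) and 292 of 3803 in the FGR library (7.68%). The lower side held 5 genes (0.129%) and 32 genes (0.841%). In both libraries 116 of 3482 genes (3.33%) passed as higher and 0 (0.0%) as lower. In the microglia-only set the calls were 128 genes higher (3.34%) and 3 lower (0.0784%) for Control, 138 (3.78%) and 9 (0.246%) for FGR, and 85 (2.47%) higher and 0 (0.0%) lower in both. The all-barcode and microglia-only calls shared 69 genes. The barcodes were picked by genes of one pathway, so these calls describe the class and are no test of it.

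The leading genes split into 2 kinds. Of the 20 genes with the largest ratios in both libraries over all barcodes, 9 belonged to the interferon lists, and all 9 stayed called in both libraries of the microglia-only set: Ifit3b, Ifit1, Ifi207, Zbp1, Slfn5, Irf7, Ifitm3, Ifi209 and Ly6a. The other 11 did not stay: Flt1, Ptprb, Slco1c1, Ly6c1, Cd93, Jcad and Epas1, which endothelial cells express, Pf4, which border macrophages express, Mal, an oligodendrocyte gene, and Id3 and Fermt2. Flt1 was held by 2 Control and 3 FGR barcodes, and 1 Control and 4 FGR barcodes held Mal. These genes are therefore carried by a few barcodes, whereas 84 of the 85 genes called in the microglia-only set had a UMI in 10 or more barcodes of each library.

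Antiviral effectors formed the largest group. Ifit1, which recognises RNA that lacks the host cap, was detected in 26 Control and 18 FGR barcodes, at 140 CPM against 0.45 CPM in the other barcodes of the Control library (ratio 309, interval 186 to 527) and 113 against 0.73 CPM in the FGR library (ratio 154, 99.3 to 243.7). Ifitm3, a membrane protein that blocks virus entry, stood at 618 against 6.01 CPM and 557 against 11.2 CPM, and Bst2, the tetherin that holds budding virus at the cell surface, at 786 against 90.1 CPM and 663 against 110.7 CPM. Slfn5 (ratios 80.9 and 55.8), Ifi209 (107 and 45.3) and Ifi27l2a (25.02 and 17.5) were higher as well. For Bst2 the ratio was 8.72 (7.70 to 9.85) in the Control and 5.99 (5.36 to 6.68) in the FGR library.

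Taken as 3 lists (antiviral effectors, the Isg15 and ubiquitin pathway, and the PARP family), the files held 86 interferon-induced genes besides the rule genes. In the Control library 44 of 53 measured genes were called higher and 0 lower, with a median log2 ratio of 2.23, and in the FGR library 38 of 49 and 0, with a median of 1.79. The median over all measured genes was -0.01 and -0.03. Most of these genes reached 50 CPM through the interferon-responsive barcodes alone and so had to differ: only 19 and 16 of them reached it in the other barcodes, and over those the median was 1.197 and 0.84. Summed over all 86 genes, the level was 12969.6 against 3346 CPM for Control, a ratio of 3.88 (3.76 to 3.99), and 10178 against 3304 CPM for FGR, a ratio of 3.08 (3.00 to 3.17). Within the microglia-only set these ratios were 4.03 and 3.52.

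Genes of the Isg15 pathway and the PARP family followed the same direction in the microglia-only set. Of the Isg15 and ubiquitin pathway, 8 of 10 measured genes were higher in the Control and 8 of 9 in the FGR library, among them Herc6, the mouse ligase that attaches Isg15 (7.24-fold and 6.50-fold), and Trim30a (5.72-fold and 5.08-fold). All measured genes of the PARP family list were called higher, 6 of 6 and 5 of 5. That list also holds Dtx3l and Adar, which are not PARP genes and are among those called in both libraries. Of the measured genes, 5 and 6 of the Isg15 pathway and 5 and 5 of the PARP family reached 50 CPM through the interferon-responsive barcodes alone, and the summed ratios over whole lists were 3.42 and 3.17 for the pathway and 5.603 and 4.71 for the family. Parp14, an ADP-ribosyltransferase, stood at 506 against 53.9 CPM in the Control library and 372 against 49.5 CPM in the FGR library, and Adar, which edits double-stranded RNA, was 4.24-fold and 3.89-fold higher.

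Guanylate-binding and immunity-related GTPases, proteins that attack the vacuoles of intracellular pathogens and are also induced by interferon gamma, were called higher for 7 of 7 measured genes of 21 in the Control and 5 of 5 in the FGR library of the microglia-only set, but 6 and 3 of them reached 50 CPM through the interferon-responsive barcodes alone and so had to differ. Summed over all 21 genes, the ratio was 4.48 and 4.53. Irgm1 stood at 211 against 28.6 CPM and 193 against 55.1 CPM, and Gbp2 at 50.2 against 2.89 CPM and 66.8 against 2.79 CPM. Most genes of this list did not reach 50 CPM on either side.

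The transcription factors of the pathway were higher in part. In the microglia-only set Stat2 stood at 171 against 17.4 CPM in the Control library (ratio 9.81, interval 7.25 to 13.02) and at 167 against 14.5 CPM in the FGR library (11.5, 8.79 to 14.9). Irf7, the factor that amplifies type I interferon production, was detected far more often within the class: over all barcodes, 26 of 60 and 32 of 71 interferon-responsive barcodes held a UMI, against 0.932% and 0.901% of the other barcodes, and no interferon-responsive barcode held more than 5 Irf7 UMIs. Irf1 was 2.56-fold and 2.42-fold higher. Irf9 was at 107 against 48.8 CPM in the Control library, where its interval (1.498 to 3.11) began just under the 1.5-fold limit and it was not called, and 97.6 against 37.1 CPM in the FGR library, where it was called. Irf8, a factor that all microglia need, was not called (ratios 1.25 and 1.49). Of 10 STAT and IRF genes, 4 were higher for Control, and 5 of 9 measured for FGR, where 4 in each library reached 50 CPM through the interferon-responsive barcodes alone. The summed ratio over the list was 1.76 and 1.84.

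Receptors gave no calls in the microglia-only set. None of the measured genes for interferon receptors and their kinases, 6 in the Control and 7 in the FGR library, was called in either direction. Over all genes of that set 3.34% and 3.78% were called higher and 0.0784% and 0.246% lower, so 0 of so few genes is near those shares. The summed ratio over the list was 0.853 (0.773 to 0.938) and 0.836 (0.768 to 0.909). Ifnar1 stood at 50.2 against 64.4 CPM in the Control library and 71.9 against 59.0 CPM in the FGR library. Ifnar2 gave ratios of 1.15 (0.891 to 1.46) and 1.07 (0.866 to 1.31), and Ifngr1, a chain of the interferon gamma receptor, 0.794 and 0.717.

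Ligand transcripts were present in very few barcodes. Ifnb1, the gene of interferon beta, gave 38 UMIs in the interferon-responsive barcodes of the Control library, all in 1 barcode that held 5 rule-gene UMIs and 2830 UMIs in total. In the FGR library 3 barcodes held 18 Ifnb1 UMIs, 15 of them in 1 barcode. Among the other barcodes 4 Control barcodes held 5 UMIs in all, and 39 FGR barcodes held 80. The other barcode with the most Ifnb1, with 13 UMIs, held 1 rule-gene UMI. No other interferon gene of the list had a UMI in the interferon-responsive barcodes. The Ifnb1 level of the class thus rests on 1 barcode in each library.

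RNA and DNA sensors were higher for 5 of 12 measured genes in the Control and 6 of 12 in the FGR library of the microglia-only set, and 5 and 6 measured genes reached 50 CPM through the interferon-responsive barcodes alone. Over all 16 sensors in the files the summed ratio was 1.56 and 1.45. Those called included the helicases Ddx58 (7.43-fold and 5.47-fold), which encodes RIG-I, Ifih1 (6.88-fold and 4.99-fold), which encodes MDA5, and Dhx58 (11.5-fold in both libraries). Zbp1, a sensor of Z-form nucleic acids, gave 136 and 114. The RNA-activated kinase Eif2ak2, counted with the antiviral effectors, stood at 251 against 43.2 CPM and 208 against 30.01 CPM.

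Antigen presentation by MHC class I was higher by smaller ratios. Within the microglia-only set 6 of 16 measured genes were called higher in the Control and 7 of 16 in the FGR library, and 4 and 3 measured genes reached 50 CPM through the interferon-responsive barcodes alone. H2-K1, a class I heavy chain, stood at 740 against 400 CPM in the Control library (ratio 1.85, interval 1.62 to 2.11) and at 950 against 506 CPM in the FGR library (1.88, 1.69 to 2.08). Tap1, which carries peptides to class I molecules, was 5.40-fold and 4.68-fold higher. H2-D1 (1.92-fold, 1.55-fold) and B2m (1.64-fold, 1.54-fold) were called in the Control library only by this rule, and the difference between libraries was not tested. Without the barcode with the most UMIs of each, H2-K1 (1.71, 1.48 to 1.964) and B2m (1.58, 1.46 to 1.70) were no longer called in the Control library. Cd74, the invariant chain of MHC class II, stood at 148.9 against 27.5 CPM in the FGR library, with a UMI in 23 of 59 barcodes, and at 46.9 against 14.6 CPM in the Control library, with 8 of 55, where it was under the 50 CPM needed for a call.

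**Figure D3:**
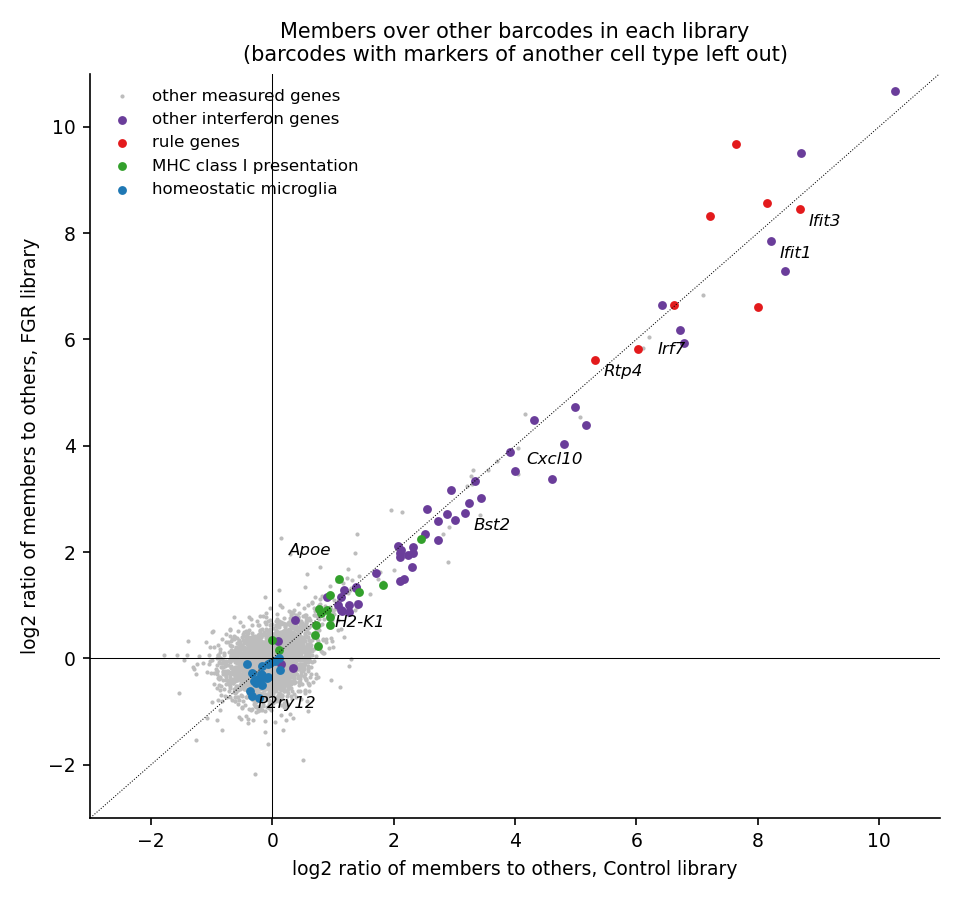
Log2 ratio of interferon-responsive to other barcodes in the Control library (x axis) and the FGR library (y axis) for each gene measured in both, in the microglia-only set. Interferon-induced genes run along the diagonal up to the rule genes, MHC class I genes such as H2-K1 lie near 1, homeostatic genes such as P2ry12 lie near or below 0, and Apoe lies off the diagonal.

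The levels of these genes changed with the number of rule-gene UMIs, also below the limit of 5. Across the Control barcodes of the microglia-only set the 86 other interferon-induced genes summed to 3261 CPM (3244 to 3277) in barcodes with 0 rule-gene UMIs, 3719 at 1, 4610 at 2 (4476 to 4748), 6055 at 3 or 4, 8752 at 5 to 9, 14094 at 10 to 19 and 19517 at 20 or more. In the FGR library the same sums were 3222, 3566, 3827, 5141, 6169, 12639 and 21884 CPM. Each step was upward in both libraries. The STAT and IRF genes changed little up to 3 or 4 UMIs in the FGR library (1204 to 1295 CPM) and reached 3195 CPM at 20 or more, against 3075 CPM in the Control library. MHC class I genes went from 4325 to 7728 CPM in the Control and from 5013 to 10727 CPM in the FGR library. Ifitm3 was at 2.96 and 3.98 CPM with 0 rule-gene UMIs, and at 702.5 (547 to 889) and 1205 (992 to 1450) at 20 or more.

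Of 22 homeostatic microglial genes 0 were called in either library of the microglia-only set, with medians of -0.19 and -0.34 on the log2 scale. Over all genes of that set 0.0784% and 0.246% were called lower, so 0 of 22 is near that share. P2ry12, a purine receptor of resting microglia, went from 3431 CPM in Control barcodes with 0 rule-gene UMIs to 2209 CPM (1925 to 2524) at 20 or more, and from 2791 to 1818 CPM (1554 to 2114) in the FGR library. It was already at 2651 and 1914 CPM at 3 or 4 UMIs, and the steps between were not all downward. Over the whole class in the microglia-only set its ratio was 0.770 (0.717 to 0.827) and 0.651 (0.603 to 0.701), short of a call in both libraries. Over all barcodes the FGR library gave 7 of 22 called lower and a median of -0.64, with the markers of other cells described above present in 12 of its 71 barcodes. Cx3cr1, the fractalkine receptor, gave 0.885 and 0.807, Tmem119 0.941 and 0.777, and Csf1r, the receptor that microglia need to survive, 0.976 and 0.944.

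**Figure D4:**
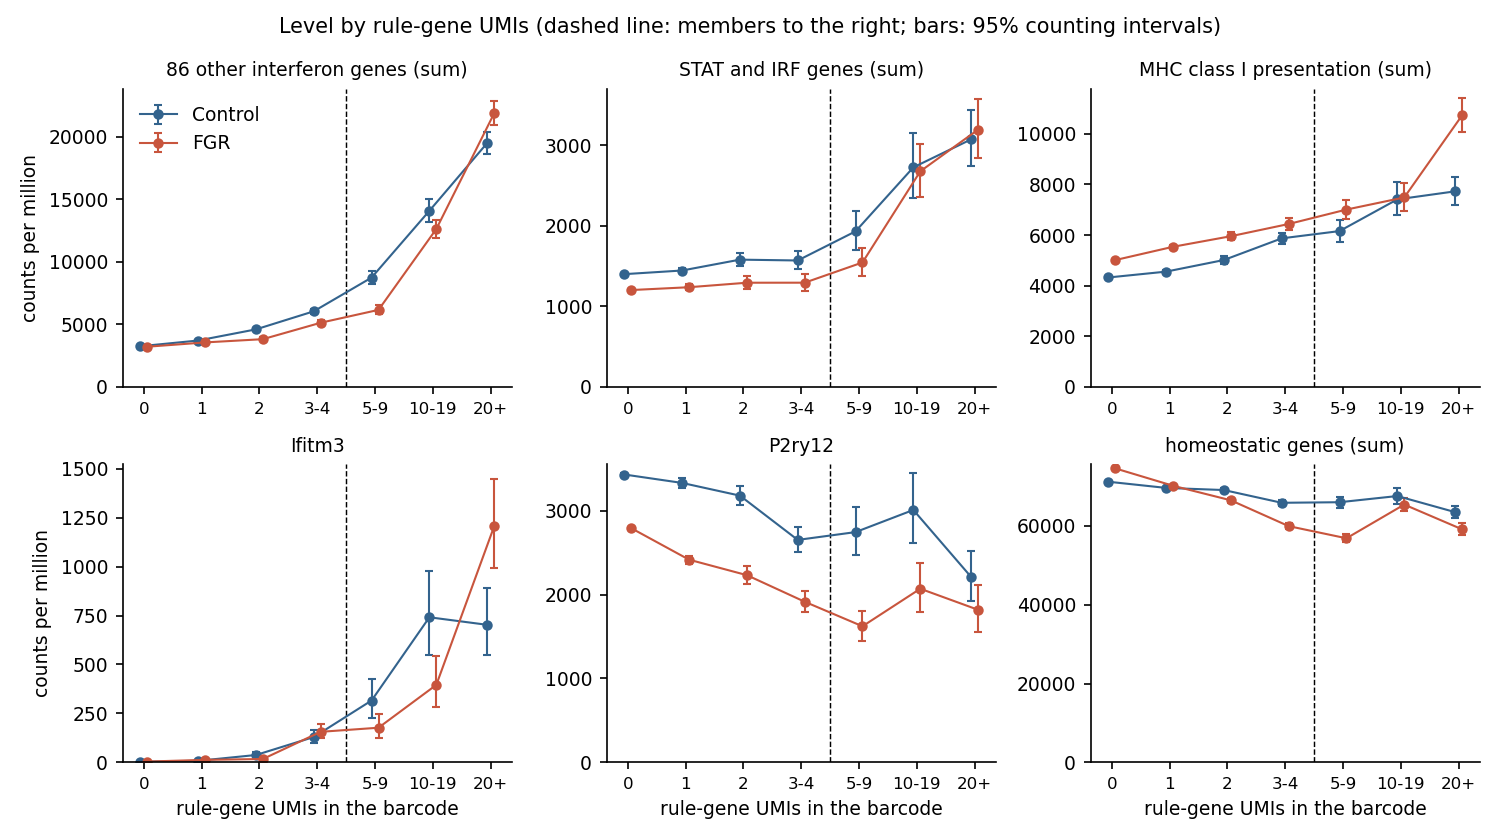
Level in CPM (y axis, from 0) of 4 gene lists and of Ifitm3 and P2ry12 in barcodes grouped by rule-gene UMIs (x axis), for the Control and FGR libraries in the microglia-only set, with 95% counting intervals as bars and the limit of 5 UMIs as a dashed line. The 86 other interferon-induced genes go from 3261 to 19517 CPM in the Control and from 3222 to 21884 CPM in the FGR library, while P2ry12 goes from 3431 to 2209 and from 2791 to 1818 CPM.

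Chemokines set some barcodes apart from the rest. Ccl12, a monocyte-attracting chemokine, stood at 1537 against 118.4 CPM in the microglia-only set of the Control library, where 41 of 55 barcodes held a UMI and 30.7% of the UMIs lay in 1 barcode, and at 1859 against 142 CPM in the FGR library, with 46 of 59 barcodes. Ccl2 was 3.26-fold and 2.97-fold higher. Ccl3 and Ccl4, which inflamed or freshly handled microglia express, reached 10 UMIs together in 54.5% of Control (40.6 to 68.0) and 69.5% of FGR interferon-responsive barcodes (56.1 to 80.8), against 27.2% and 46.1% of the other barcodes. After thinning, with a cut of 3 UMIs, the shares were 58.2% and 69.5% against 29.1% and 47.4%. Ccl5 was held by 1 of 55 Control and 8 of 59 FGR barcodes.

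Cxcl10, a chemokine that interferon and inflammatory signals both induce, was uneven within the class. In the Control library 8 of 60 interferon-responsive barcodes held a UMI, against 3.11% of the other barcodes, and the level was 273 against 19.6 CPM. In the FGR library 29 of 71 did, against 12.9%, with 1661 against 139 CPM. Among barcodes with 20 or more rule-gene UMIs, 3 of 18 Control (16.7%, exact interval 3.58 to 41.4) and 17 of 19 FGR barcodes (89.5%, 66.9 to 98.7) held Cxcl10. At 10 to 19 rule-gene UMIs 1 of 14 and 1 of 18 did, and at 5 to 9 UMIs 4 of 28 and 11 of 34. Of the 96 Cxcl10 UMIs of the Control library, 51 lay in 1 barcode. Each group holds few barcodes, and with 1 library each, condition and library cannot be told apart.

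Barcodes rich in Cxcl10 were more frequent within the class, but most of them lay outside it, as nearly all barcodes do. At least 3 Cxcl10 UMIs were found in 5 Control (8.33%) and 23 FGR (32.4%) interferon-responsive barcodes. They were also found in 122 (1.15%) and 579 (6.77%) other barcodes. The rule itself keeps rule genes low in those other barcodes (Ifit3 at 1.32 CPM and Isg15 at 17.9 CPM in the FGR library), and Irf7, which the rule did not use, was at 1.58 CPM there, against 172 CPM in the 23. The 23 interferon-responsive FGR barcodes with 3 or more Cxcl10 UMIs held Ifit3 at 945 CPM, Isg15 at 1318 CPM and Rsad2 at 655 CPM, against 237, 289 and 41.6 CPM in the 48 with fewer. These are rule genes, and the median rule-gene sum was 24 UMIs in the 23 and 8 in the 48. Of the 95 Rsad2 UMIs in the 23, 38 lay in 1 barcode and 24 in another. The 48 include the barcode of 46239 UMIs that held oligodendrocyte markers. Ccl4 was high on both sides, at 9584 CPM in these 23 barcodes and 6247 CPM in the 579.

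**Figure D5:**
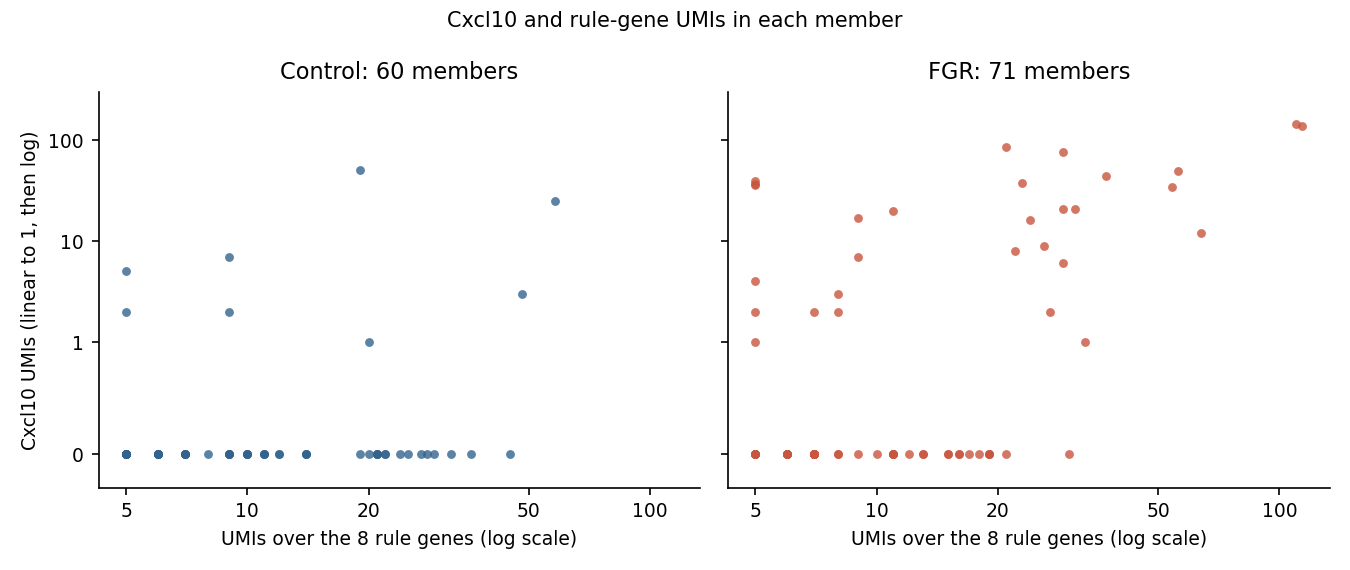
Cxcl10 UMIs (y axis, linear to 1 and log above) against UMIs over the 8 rule genes (x axis, log scale) in each of the 60 Control (left) and 71 FGR (right) interferon-responsive barcodes. With 20 or more rule-gene UMIs, 3 of 18 Control and 17 of 19 FGR barcodes lie above 0.

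The FGR and Control interferon-responsive barcodes were then set against each other, with the same ratio in the other barcodes beside it. Over all barcodes 134 of 3977 measured genes were called higher in FGR (3.37%) and 59 lower (1.48%), but 76 of the 134 had a UMI in fewer than 10 FGR barcodes, and 29 of the 59 in fewer than 10 Control barcodes. All 63 UMIs of Acta2, a smooth muscle gene, lay in 1 Control barcode. In the microglia-only set 57 of 3876 genes (1.47%) passed as higher and 22 (0.568%) as lower. Of the 57, 29 were also called higher between the other barcodes of the libraries, and of the 22, 9 were also called lower. Between the other barcodes of all cells 87 of 3511 genes were called higher (2.48%) and 41 lower (1.17%).

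Interferon-induced genes of the 3 lists were compared between the libraries. Of 58 measured in the microglia-only set, 0 were called in either direction (1.47% and 0.568% over all genes), and over all barcodes Plac8 alone was called, at 119.6 CPM in Control and 30.2 CPM in FGR (ratio 0.253). Plac8 is also a monocyte marker, and 1 Control barcode was set aside for monocyte markers. Its level in the microglia-only set is therefore not independent of how that set was chosen. In the microglia-only set the median log2 ratio of FGR to Control was -0.17, against -0.07 over all measured genes. Their sum over 86 genes was 0.856 times the Control level (0.820 to 0.894), against 0.981 in the other barcodes. Ifit3 gave a ratio of 0.988 (0.805 to 1.21), Isg15 1.13 (0.927 to 1.39) and Irf7 0.750 (0.481 to 1.17). Rsad2 was the exception among the rule genes, at 267 against 80.3 CPM (ratio 3.32, 2.12 to 5.42). In 1 FGR barcode lay 38 of its UMIs (36.5%), without which the FGR level was 172 CPM. A further 24 lay in another barcode, so the difference rests largely on few barcodes. Rtp4 was at 257 against 378 CPM (0.679) and at 0.554 times the Control level in the other barcodes too.

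Several genes were called between FGR and Control barcodes both in and outside the class. Cxcl10 was 6.78-fold higher in FGR (5.49 to 8.47) within the class and 7.19-fold outside it. Ddit4, a stress-induced inhibitor of mTOR signalling, was 4.79-fold and 5.83-fold higher, Dusp1, which dephosphorylates MAP kinases, 3.20-fold and 4.71-fold, and Tnfaip3, an inhibitor of NF-kB, 5.40-fold and 4.14-fold. Fos, an immediate early gene, was called outside the class (1978 CPM in Control, 4268 CPM in FGR) but not within it (2303 and 3508 CPM). On the lower side Hes1, a target of Notch, gave 0.303 and 0.273, and Mid1, a ubiquitin ligase, 0.139 and 0.228. Whether the ratio inside the class differs from that outside was not tested.

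The summed level of Apoe was called within the class but not among the other barcodes. Apoe, the lipid carrier that activated microglia express, stood at 1577 CPM in Control and 6560.5 CPM in FGR interferon-responsive barcodes of the microglia-only set (ratio 4.16, 3.77 to 4.60), against 0.953 in the other barcodes. That level sat in few barcodes: 7 of 59 FGR barcodes held 100 or more Apoe UMIs and 75.5% of all Apoe UMIs, and 0 of 55 Control barcodes did. Without them the FGR level was 1961 CPM. A UMI of Apoe was present in 49 of 55 Control and 45 of 59 FGR barcodes, with medians of 4 and 6 UMIs. Among the other barcodes 0.266% of Control and 0.850% of FGR barcodes reached 100 Apoe UMIs, so such barcodes were more frequent in the FGR library outside the class too.

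Several genes of activated microglia and myeloid cells were likewise held by few barcodes. Lgals3, the lectin galectin-3, was held by 1 Control and 8 FGR interferon-responsive barcodes, and by 0.532% and 1.44% of the other barcodes. Cybb, a subunit of the phagocyte oxidase, was held by 2 and 9, and by 0.152% and 0.484% of the others. Vcam1, an adhesion molecule, was held by 1 and 10, and by 1.13% and 3.06% of the others, so each was more frequent in the FGR library on both sides. C5ar1, the receptor for complement C5a, was more widely spread: 24 of 59 FGR and 4 of 55 Control barcodes held a UMI, and the ratio was 5.37 (2.27 to 15.5) within the class and 1.60 outside. Its Control level within the class was 20.1 CPM, against 49.8 CPM in the other barcodes. Of 18 genes on the list of activated microglia, 8 of 14 measured were higher in the interferon-responsive barcodes of the FGR library, among them Axl (16.9-fold), Cst7 (4.80-fold) and Lpl (2.204-fold), and 2 of 10, Csf1 and Cd52, in the Control library. Over all genes of the microglia-only set 3.78% were called higher for FGR and 3.34% for Control. The 8 include Apoe, carried by few barcodes as described above, and Fabp5, with 60.0% of its FGR UMIs in 1 barcode. Of the measured genes on the list, 4 in the FGR and 1 in the Control library reached 50 CPM through the interferon-responsive barcodes alone, Axl and Cst7 among the 4, so the counts depend in part on this minimum. Axl stood at 43.5 against 2.51 CPM in the Control library, under the 50 CPM needed for a call. Border macrophage markers were present in 7 FGR barcodes and 1 Control barcode before those barcodes were set aside. The part of such cells in the values of the barcodes that remain was not tested.

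Genes outside the interferon lists were called in both libraries too. Among microglia-only calls, 64 of the 85 genes called higher in both belonged to 8 lists of the pathway and its targets, and 21 did not. This split depends on how the lists were drawn, and a gene outside them is not thereby unrelated to interferon. The 21 include Trim30c (9.54-fold and 9.50-fold), named as a relative of the listed Trim30a, and Ddx60 (9.43-fold and 10.6-fold). Fgl2, a secreted fibrinogen-like protein, was 33.2-fold and 22.9-fold higher, Sdc3, a cell surface proteoglycan, 16.5-fold and 11.05-fold, and Fcgr4, an antibody receptor, 10.5-fold and 6.38-fold. Tnf stood at 187 against 71.8 CPM in the Control library and 403 against 79.4 CPM in the FGR library, but 33.9% of its Control UMIs lay in 1 barcode, without which the ratio was 1.77 (1.24 to 2.44) and no call. Csf1, a ligand of Csf1r, was 3.37-fold and 3.08-fold higher, Nampt, an enzyme of NAD synthesis, 3.28-fold and 2.78-fold, and Tspo, a mitochondrial protein used as an imaging marker of glial activation, 2.64-fold and 2.90-fold. These genes, with Trim30c and Ddx60, were picked from the 21 after their values were seen. No call fell in the housekeeping groups: 0 of 22 ribosomal protein, 0 of 18 measured lysosomal and 0 of 13 mitochondrially coded genes were called in either direction in either library. Over all genes of the microglia-only set 3.34% and 3.78% were called higher, and 0.0784% and 0.246% lower, so 0 is near those shares.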

How the data were processed

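Hippocampal microglia from 1 Control and 1 FGR library of single-cell RNA sequencing were analysed. The authors deposited raw UMI counts per gene and barcode for all barcodes, in matrices that name Cell Ranger 4, per the file headers. The submitters' processing notes name Cell Ranger 3.0, Seurat 5.0 and build mm10, and the labels name a 3′ protocol. No annotation or strand setting is stated there, so overlapping and antisense genes cannot be told apart. The files hold 58988805 and 50833332 UMIs.

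Barcodes passed with at least 1500 UMIs, at least 200 genes and at most 10% mitochondrial UMIs. No doublet caller was run. Barcodes with 5 or more UMIs of another cell type's defining markers were left out in an alternative added after seeing the data, and the 6% of barcodes with the most UMIs in another. Counts were summed over barcodes and divided by the summed UMIs. Ratios have exact conditional 95% intervals, levels Poisson intervals and shares Clopper-Pearson intervals, and all cover counting error only. Log2 ratios used a prior count of 0.5. Thinning drew 1500 UMIs from each barcode without replacement with a fixed seed.

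The rule for named genes took the 8 rule genes, a fixed set of pathway, chemokine and microglial genes, the 20 genes with the largest ratios in both libraries, the 8 highest and 8 lowest between libraries, and up to 4 of each of 24 lists by size of ratio. Other genes in the text, such as Adar, Herc6, Fgl2, Nampt, Tspo, Tnfaip3, Hes1, Vcam1 and C5ar1, were named after their values were seen or stand in those lists. The members and lists were chosen with earlier results of these data known. Where the same rule was applied to simulated counts, 100% of 50 genes raised 4-fold and 0% of the unchanged genes were called, among 3423 genes for Control and 3308 for FGR. Of 50 genes lowered 4-fold, 92% and 94% were called. The simulation held no spread between barcodes and no gene under 50 CPM in the other barcodes. It therefore covers counting error alone, not UMIs gathered in few barcodes. Promoters came from RefSeq (GRCm38.p6) and gene positions from GENCODE M21, which held 32158 of 32285 gene IDs. Python 3.11.15, NumPy 2.4.6, SciPy 1.17.1, pandas 2.3.3 and Matplotlib 3.10.9 were used. Some items are not reported here.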

Additional observations from a re-analysis of the deposited data

Results flagged for a closer look

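Scd2, which encodes a fatty acid desaturase, was called in opposite directions in the libraries. In the Control library it stood at 31.3 CPM in the interferon-responsive and 85.8 CPM in the other barcodes, a ratio of 0.365. In the FGR library it stood at 610.4 against 66.9 CPM, a ratio of 9.12. In the microglia-only set the ratios were 0.316 and 1.02, so the FGR excess was not present without the barcodes that held markers of another cell type. The difference between the libraries was not tested.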

How the results depend on the processing

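Of 100 values recomputed under other settings, 71 stayed within the limit set for them and 29 moved. Shares and gene counts cannot change direction. Only the median log2 ratios could, and 0 of these did. The share of interferon-responsive barcodes was 1.34% (Control) and 1.80% (FGR) at a limit of 3 UMIs, 0.365% and 0.511% at 8 UMIs, 0.842% in the Control library after thinning with a limit of 2, and 0.603% in the FGR library with Isg15 left out of the rule. Genes higher in both libraries numbered 116 as reported, 227 at a 20 CPM minimum, 70 at 100 CPM and 61 without the barcode with the most UMIs of each gene, and genes lower in both numbered 1 at 20 CPM and 1 without that barcode. Genes higher in FGR interferon-responsive barcodes (134) numbered 230 at 20 CPM, 80 at 100 CPM, 54 at a limit of 8 UMIs, 40 after thinning, 74 without the 6% of barcodes with the most UMIs, 86 without the top barcode of each gene and 57 in the microglia-only set. Genes lower there (59) numbered 37 at 100 CPM, 29 at a fold limit of 2, 19 after thinning, 26 without the top barcode of each gene and 22 in the microglia-only set. The median log2 ratio of the interferon-induced genes was 1.60 at 3 UMIs and 1.197 among genes at 50 CPM in the other barcodes (Control), and 2.84 at 8 UMIs, 2.56 after thinning, 2.69 without the 6% of barcodes with the most UMIs and 0.84 among genes at 50 CPM in the other barcodes (FGR). The cause of these moves was not tested.

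No paired analysis was possible because each group has 1 library, and leaving out a replicate would leave a group empty. The depth limits genes under 50 CPM, which had few UMIs in the interferon-responsive barcodes.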
